A study of Sus scrofa with 22 samples.

Results

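Complement components and regulators were followed in cells collected by laser capture microdissection (LCM) from the porcine endometrium on Day 12. The list was drawn up by name and held 9 genes, which are C1R, C1S, C3 and CFB of the cascade, the soluble regulators CFI and SERPING1, and the membrane regulators CD46, CD55 and CD59. Of these, 8 were listed in the count tables, each of them in all 3 cell types, among 12401 genes listed for at least 1 cell type. CFB was listed for none of the cell types and was not analysed here.

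Complement is a set of plasma and cell surface proteins that mark and lyse targets. The classical pathway starts with C1q, which activates the proteases C1r and C1s, and all pathways meet at the cleavage of C3, which deposits C3b on surfaces and leads on to the membrane attack complex. Host cells are shielded by factor I (CFI), which degrades C3b together with cofactors such as CD46, by CD55, which breaks up the convertases, by CD59, which blocks the attack complex, and by the C1 inhibitor SERPING1.

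The question was how the endometrium of pregnant gilts differs from that of cyclic gilts when the conceptus signals its presence. All animals were prepuberal crossbred gilts (German Landrace and Piétrain) in which ovulation was induced with PMSG and hCG. The pregnant group was inseminated with semen and the cyclic (control) group with the supernatant of semen without sperm, and both were sampled on Day 12. Luminal epithelium (LE) and glandular epithelium (GE) were captured from 4 pregnant gilts (01, 03, 05 and 14) and 4 control gilts (02, 04, 06 and 13), stroma (S) from pregnant gilts 01, 05 and 14 and control gilts 02, 04 and 13, which gives 22 RNA-seq libraries. Stroma is a mixture of fibroblasts, immune cells and other cells, and each library was made from a small amount of RNA. Levels are given as CPM (counts scaled to a common library total after TMM normalization of all 22 libraries), always in the order of the gilt numbers above, and differences as log2 fold changes ± standard error (SE). FDR is the p value of the edgeR quasi-likelihood F test adjusted over all genes (Benjamini-Hochberg). Intervals given as 95% were taken from the SE with the normal distribution. They are too narrow for so few gilts and can differ from the F test.

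Library totals ranged from 893912 counts (pregnant LE of gilt 01) to 4020796 counts. A count of 3, taken as the floor, corresponded to 0.694 to 3.57 CPM, and all libraries of the 8 genes were above it, with a lowest value of 6 counts for CFI in pregnant LE of gilt 01. The labels of the cell types were compared with marker genes. The summed level of 8 epithelial markers was 2770 to 3431 CPM in control S and 3092 to 3729 CPM in control LE, and that of 8 fibroblast markers was 4601 to 8513 CPM in control S and 11383 to 16980 CPM in control LE. The stromal label of these control libraries was therefore not met by the fibroblast markers, nor did these markers set control LE apart as epithelium. Pregnant S had 1219 to 4775 CPM of the epithelial markers and 8105 to 58678 CPM of the fibroblast markers. Pregnant LE had 7647 to 20094 CPM of the fibroblast markers. Control GE had 792 to 2555 CPM of the epithelial markers, below control S and control LE, and 4288 to 45526 CPM of the fibroblast markers. By the epithelial sum its glandular label was not met either. This sum was 792 CPM in gilt 02 and 1883 to 2555 CPM in the other control gilts. Of the 8 epithelial markers, only EPCAM had a higher mean in control GE (286 CPM) than in control LE (260 CPM). KRT8 had 387 and 1028 CPM. Pregnant GE had 2443 to 3412 CPM of the epithelial markers and pregnant LE 3899 to 5393 CPM. The 8 epithelial markers split between pregnant and control LE. At an FDR below 0.01 (edgeR, 10% of all genes) 3 were higher and 3 lower in pregnant LE, with a median log2 fold change of −0.32. Mean MUC1 was 236 CPM in control and 1087 CPM in pregnant LE, mean KRT8 1028 and 397 CPM. The part of these marker differences in the contrasts between cell types was not tested. The libraries of gilt 01 had the highest fibroblast sums of their groups (20094 CPM in LE, in GE 29168 and in S 58678 CPM), as had gilt 02 in control GE (45526 CPM). In such captured cells, a larger share of another cell type and more RNA per cell cannot be told apart.

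The sequences upstream of 4 genes are shown because CFI and CD46 differed between pregnant and control LE and CD55 and CD59 between GE and LE of pregnant gilts. They end at the base before the RefSeq gene model (Sscrofa11.1) and are written 5′ to 3′ on the strand of the gene, with matches to the motifs named after them in capitals. CFI (chr8:112430524-112430823, plus strand), CD55 (chr9:67932769-67933068, plus strand) and CD59 (chr2:27186287-27186586, plus strand) are given with 300 bases. For CD46 (chr9:135078911-135078993, minus strand) only the 83 bases that are free of exons of the neighbouring gene LOC110255546 are given.
CFI: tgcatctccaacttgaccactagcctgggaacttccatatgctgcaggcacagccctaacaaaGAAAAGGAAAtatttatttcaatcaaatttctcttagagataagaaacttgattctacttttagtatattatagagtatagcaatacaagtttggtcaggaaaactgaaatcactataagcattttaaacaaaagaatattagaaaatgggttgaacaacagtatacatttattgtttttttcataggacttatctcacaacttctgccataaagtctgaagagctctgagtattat
CD46: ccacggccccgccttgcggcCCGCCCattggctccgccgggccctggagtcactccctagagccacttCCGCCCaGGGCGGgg
CD55: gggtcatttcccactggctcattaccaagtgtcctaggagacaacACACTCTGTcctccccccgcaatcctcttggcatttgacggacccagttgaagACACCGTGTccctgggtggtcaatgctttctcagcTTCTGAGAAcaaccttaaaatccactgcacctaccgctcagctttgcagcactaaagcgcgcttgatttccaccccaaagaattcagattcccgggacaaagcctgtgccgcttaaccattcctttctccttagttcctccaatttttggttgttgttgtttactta
CD59: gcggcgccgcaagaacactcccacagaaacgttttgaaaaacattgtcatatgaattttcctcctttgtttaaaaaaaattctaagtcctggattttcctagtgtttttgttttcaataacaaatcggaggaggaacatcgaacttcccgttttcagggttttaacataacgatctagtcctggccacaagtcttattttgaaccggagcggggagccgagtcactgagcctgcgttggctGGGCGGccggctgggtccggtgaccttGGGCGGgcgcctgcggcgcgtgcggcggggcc

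The regions differed in base composition. The 300 bases before CFI held 0 CpG dinucleotides and 32.3% G and C, lower than in all but 2.64% of the regions before 19558 protein-coding genes, which had a median of 13 CpG and 56.7%. The 300 bases before CD46 held 31 CpG and 72.7%, a G and C share above that of 87.6% of the regions. CD59 had 22 CpG and CD55 had 8. In both strands, 8 motifs were searched. The interferon-stimulated response element (GAAA, any 2 bases, GAAA) was found before CFI, 237 to 228 bases before the start, and is present in 3.69% of all regions. The gamma-activated site (TTCNNNGAA, 7.44% of regions) was found before CD55 and SERPING1. The core of the progesterone response element (ACANNNTGT, 4.78%) was found before CD55, SERPING1 and CD46, in CD46 outside the printed part, and the GC box (GGGCGG, 47.6%) before CD46, CD59 and C1R. No match was found for NF-kappa-B (GGG, any 2 bases, TTTCC, 1.92%), AP-1 (TGANTCA, 6.34%), the estrogen response element (GGTCA, any 3 bases, TGACC, 0.0153%) and the TATA box (TATAAA, 11.9%). The matches describe the letters of these regions only.

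In pregnant LE, CD46 was higher and CFI lower than in control LE, whereas the other 6 genes did not pass the threshold. CD46 and CFI were 2 of 8 genes called in LE at an FDR below 0.01, where 10% of 11415 genes were called, and 3 had an unadjusted p below 0.05 (35.6% of all genes). The median log2 fold change of the 8 genes was −0.0029, against 0.0076 over all genes. In GE 0 of 8 were called by edgeR at the study's threshold for GE and S, an unadjusted p below 0.0021, which 0.694% of 11676 genes passed. There, 2 of 8 had an unadjusted p below 0.05 (8.09% of all genes), and DESeq2 called 2, the exact test 1 and the likelihood ratio test 1. The median of the 8 genes in GE was −0.35 (all genes −0.021). In S 0 of 8 were called (1.47% of 11532 genes), 5 had p below 0.05 (12.5% of all genes), and DESeq2, the exact test and the likelihood ratio test called 0. The median of the 8 genes in S was 1.63 (all genes 0.079), and 7 of 8 had log2 fold changes above 0.

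**Figure D1:**
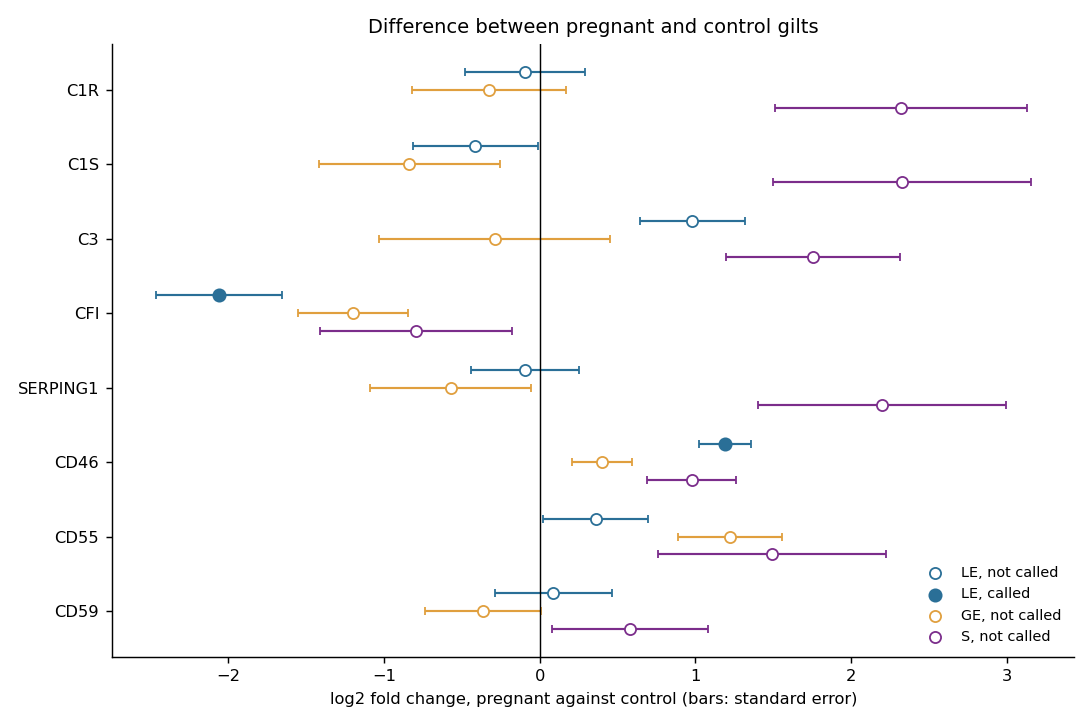
The log2 fold change between pregnant and control gilts (x axis) is plotted for each of the 8 genes in LE, GE and S, with bars for the standard error and filled points for called genes. CD46 (1.19) and CFI (−2.06) in LE are the filled points, and C1R, C1S and SERPING1 lie above 2 in S with wide bars.

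CFI, the protease that inactivates C3b (chr8:112430824-112470844, plus strand), was lower in pregnant than in control LE. In control LE its level was 39.4, 64.8, 69 and 66.7 CPM, in pregnant LE 7.14, 9.97, 8.84 and 28.5 CPM. All pregnant libraries lay below all control libraries, and gilt 14 was the highest of the pregnant and gilt 02 the lowest of the control group. Such a separation in either direction was found for 26.7% of the genes in LE. CFI fell by 2.06 on the log2 scale (SE 0.41, FDR = 0.00576, n = 4 and 4, edgeR). The call depended on single gilts, since the FDR was 0.0113 to 0.0206 when gilt 01, 03, 04, 05, 06 or 13 was left out and 0.00899 and 0.00013 without gilt 02 or 14. Without gilt 14 the log2 fold change was −2.76.

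CFI in GE was 51.7, 38.3, 48.3 and 34.6 CPM in the control and 26, 9.58, 14 and 25.9 CPM in the pregnant gilts. The groups did not overlap here either, as for 4.97% of the genes in GE, but the log2 fold change of −1.20 ± 0.35 SE did not reach the threshold (FDR = 0.425) and was called by DESeq2 only. In S the level was 42, 46.4 and 66.8 CPM in the control and 49.8, 7.28 and 31.2 CPM in the pregnant gilts, with gilt 05 far below the others and gilt 01 inside the control range (−0.80 ± 0.62 SE, FDR = 0.675). CFI thus had log2 fold changes below 0 in all 3 cell types, and the difference between GE and LE in this response was 0.83 ± 0.51 SE (FDR = 0.452). Among the 6 groups, control LE had the highest and pregnant LE the lowest mean of CFI (60 and 13.6 CPM), although neighbouring groups in this order overlapped.

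CD46, a surface cofactor for factor I (chr9:135025439-135078910, minus strand), was higher in pregnant than in control LE. LE held 104, 79.8, 115 and 93.5 CPM in the control and 237, 253, 200.0 and 211 CPM in the pregnant gilts. The lowest pregnant library, that of gilt 05, was well above the highest control library, that of gilt 06 (26.7% of the genes in LE did not overlap). CD46 rose by 1.19 ± 0.17 SE on the log2 scale with FDR = 0.000955 (edgeR, n = 4 and 4), and the FDR stayed between 0.00103 and 0.0053 when each gilt was left out in turn. The spread within groups was small, with 98.1 ± 14.9 CPM (SD, n = 4) in the control and 225 ± 24.3 CPM (SD, n = 4) in the pregnant group.

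GE contained 161, 126, 121 and 117 CPM of CD46 in the control and 210.2, 158, 159.7 and 163 CPM in the pregnant gilts. The groups overlapped only by gilt 02, the highest control, and the log2 fold change was nearer 0 than in LE (0.40 ± 0.19 SE, FDR = 0.647). The difference of these responses, tested in the joint fit, was −0.81 ± 0.21 SE with FDR = 0.0548, and was not called. In S the values were 102, 88.3 and 107 CPM in the control and 247, 182 and 141 CPM in the pregnant gilts, again without overlap, as for 17.4% of the genes in S. This change in S, 0.98 ± 0.28 SE (FDR = 0.242), was not called in the fit of S alone but was called in the joint fit of all 22 libraries without a replicate block. Pregnant LE, S and GE had the 3 highest means of CD46, followed by control GE. Control S and control LE lay below control GE without overlap. In control gilts 9.35% of the genes did not overlap in S against GE, and 16.6% in GE against LE.

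**Figure D2:**
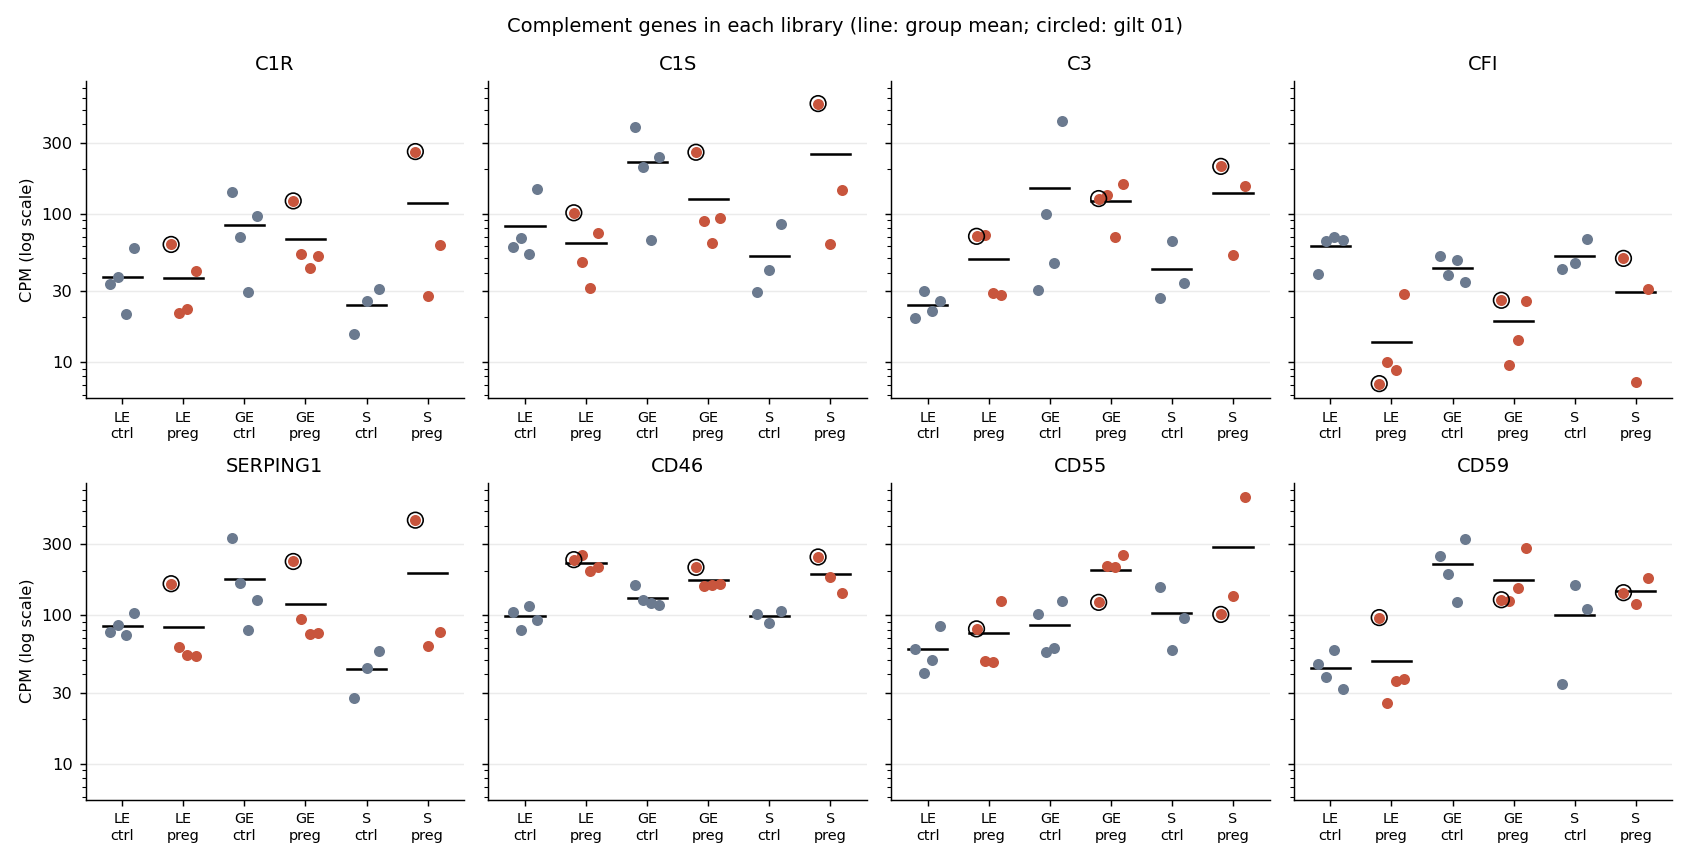
Each point is the level of a gene in 1 library (CPM, log axis), for 6 groups of 3 or 4 libraries, with a line at the group mean and circles around the libraries of gilt 01. CD46 in LE separates the groups (79.8 to 115 CPM in the control, 200.0 to 253 CPM in the pregnant gilts), and gilt 01 is the highest pregnant library of C1R, C1S and SERPING1 in every cell type.

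CD55, decay-accelerating factor (chr9:67933069-67960380, plus strand), had its largest differences outside LE. In control GE it was 101, 56.9, 60.1 and 125 CPM and in pregnant GE 122, 216, 212 and 256 CPM. Gilts 03, 05 and 14 were above all controls, and gilt 01 was just below control gilt 13. The difference of 1.22 ± 0.33 SE (FDR = 0.369) missed the threshold with the quasi-likelihood test of edgeR and passed it with DESeq2, the exact test and the likelihood ratio test.

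In LE, CD55 was 59.4, 40.6, 50.2 and 84.9 CPM in the control and 80.9, 49.3, 48.5 and 125 CPM in the pregnant gilts, with overlapping groups (0.36 ± 0.34 SE, FDR = 0.483, 95% interval −0.30 to 1.02). In S it was 155, 58.7 and 95.5 CPM in the control and 101, 134 and 625 CPM in the pregnant gilts. Gilt 14 alone stood above the controls, and the log2 fold change of 1.49 ± 0.73 SE (FDR = 0.469) was 0.23 without it.

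In pregnant gilts CD55 was higher in GE than in LE of the same gilt in 4 of 4 pairs. This difference was called, with a log2 fold change of 1.51 ± 0.34 SE and FDR = 0.00479. CD55 and CD59 were 2 of 8 genes called in GE against LE of pregnant gilts, where 15.8% of 10643 genes were called, and 6 had an unadjusted p below 0.05 (41.3% of all genes). The median log2 fold change of the 8 genes was 0.87, against −0.04 over all genes. In control gilts the difference of CD55 was 0.51 ± 0.32 SE (FDR = 0.337), and the difference between pregnant and control gilts in this contrast was 1.0 ± 0.46 SE (FDR = 0.29). The call was lost without gilt 03 (FDR = 0.0283), without gilt 05 (FDR = 0.0414) and without the replicate block of the gilt (log2 fold change 1.41, FDR = 0.047). S against LE of pregnant gilts gave 1.56 ± 0.37 SE (FDR = 0.0156), not called with edgeR.

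CD59, the inhibitor of the membrane attack complex (chr2:27186587-27207303, plus strand), had higher levels in GE than in LE. Control LE held 47.2, 38.4, 58.6 and 31.7 CPM and control GE 250.0, 190.5, 123 and 326 CPM. Each of the 4 gilts had more CD59 in GE, and the lowest GE library was above the highest LE library (no overlap in either direction was found for 16.6% of all genes). Its difference of 2.30 ± 0.47 SE had FDR = 0.0115, just above the threshold. In GE against LE of control gilts 0 of 8 genes were called (1.84% of all genes), 6 had p below 0.05 (27.9% of all genes), and DESeq2 with the replicate block called 3, which were C1S, C3 and CD59. The median log2 fold change of the 8 genes was 1.01, against −0.0017 over all genes.

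Pregnant LE held 96.4, 25.7, 36.3 and 37.2 CPM of CD59 and pregnant GE 127, 125, 152 and 286 CPM. The contrast was found again in 4 of 4 gilts without overlap (21.3% of all genes) and was called (1.92 ± 0.47 SE, FDR = 0.00835). Leaving out gilt 03, 05 or 14 ended the call (FDR = 0.04, 0.0483 and 0.058). Gilt 01 was highest in LE and gilt 14 highest in GE, each far from the other 3 libraries. In S the level was 34.3, 159.6 and 109 CPM in the control and 142, 119 and 179 CPM in the pregnant gilts. S was above LE in 3 of 3 pregnant gilts (1.51 ± 0.50 SE, FDR = 0.0592) and in 2 of 3 control gilts (1.04 ± 0.53 SE, FDR = 0.776), not called in either. S against GE of pregnant gilts gave −0.41 ± 0.50 SE and was not called.

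Between pregnant and control gilts CD59 was called in no cell type. Its log2 fold changes were 0.09 ± 0.38 SE in LE (95% interval −0.65 to 0.83), −0.36 ± 0.37 SE in GE (95% interval −1.10 to 0.37) and 0.58 ± 0.50 SE in S (95% interval −0.40 to 1.56). The sign in LE was not stable, because it was below 0 with library size in place of TMM (−0.051) and without gilt 01 (−0.4).

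C3, the central component (chr2:72431470-72471622, plus strand), was lowest in control LE. It had 19.7, 29.8, 22 and 25.9 CPM there and 70.2, 71.3, 29.3 and 28.2 CPM in pregnant LE. Gilts 01 and 03 were above all controls, whereas gilts 05 and 14 lay within the control range. The difference of 0.98 ± 0.34 SE did not pass the threshold (FDR = 0.0619).

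In GE the level of C3 was 30.4, 98.7, 46.6 and 422 CPM in the control and 126, 134, 69.8 and 159 CPM in the pregnant gilts. Gilt 13 was more than 4 times any other control library. The difference of −0.29 ± 0.74 SE (FDR = 0.935) turned to 1.08 without gilt 13, so that no direction can be given for GE. In S it was 27, 65.3 and 33.8 CPM in the control and 208, 52.3 and 153 CPM in the pregnant gilts, with gilt 05 inside the control range (1.76 ± 0.56 SE, FDR = 0.274). C3 was higher in GE than in LE in 4 of 4 control gilts (2.04 ± 0.54 SE, FDR = 0.0285) and in 4 of 4 pregnant gilts (1.36 ± 0.50 SE, FDR = 0.0561), not called in either. Without gilt 13 the first of these was 1.16.

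C1R and C1S encode the proteases of the first component and are neighbours on chromosome 5 in opposite orientation (C1R at chr5:63644097-63655149 on the plus strand, C1S at chr5:63670309-63681466 on the minus strand). Per kb of exon, C1S was 1.16 to 2.42 times C1R in the 22 libraries. A small part of C1R (1.25% of its 50-base windows) is identical in C1RL, whose reads could be assigned to either gene. In LE, C1R was 33.4, 37.4, 20.9 and 58.3 CPM in the control and 61.9, 21.5, 22.6 and 40.7 CPM in the pregnant gilts. For C1S the LE values were 59.4, 68.8, 53.7 and 146 CPM and 101, 47.2, 31.7 and 73.8 CPM. Both genes overlapped between the groups (−0.09 ± 0.39 SE and −0.41 ± 0.40 SE on the log2 scale, FDR 0.885 and 0.502), and the sign of either turned when gilt 13 was left out.

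In GE, C1R was 140.2, 69.7, 29.8 and 96 CPM in the control and 122, 53.4, 42.8 and 51.8 CPM in the pregnant gilts. C1S in GE was 385, 205, 66.3 and 239.6 CPM and 259, 88.7, 63.4 and 92.8 CPM. Control gilt 02 and pregnant gilt 01 were the highest of their groups for both genes, and the groups overlapped (−0.33 ± 0.50 SE and −0.84 ± 0.58 SE, FDR 0.894 and 0.752). The S values of C1R were 15.4, 25.7 and 31.2 CPM in the control and 261, 27.8 and 61.8 CPM in the pregnant gilts. C1S in S was 29.7, 41.6 and 85 CPM in the control and 551, 62.2 and 144 CPM in the pregnant gilts. Gilt 01 was far above the other libraries for both genes, and gilt 05 lay within the control range.

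SERPING1, the inhibitor of C1r and C1s (chr2:13324160-13338826, minus strand), was likewise highest in gilt 01 among the pregnant libraries of each cell type. LE values were 77.3, 86.3, 73.9 and 103 CPM in the control and 163, 60.9, 53.7 and 53.2 CPM in the pregnant gilts, with gilt 01 far above the others (−0.09 ± 0.35 SE, FDR = 0.872). In GE they were 329.7, 166, 79 and 127 CPM in the control and 230.2, 94.2, 74.2 and 76 CPM in the pregnant gilts, with gilts 02 and 01 the highest (−0.57 ± 0.52 SE, FDR = 0.821). In S the control had 27.7, 44.3 and 57.7 CPM and the pregnant group 437, 61.9 and 76.6 CPM. The S groups of SERPING1 did not overlap, as for 17.4% of the genes in S, and gilt 05 exceeded the highest control by little.

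In S the log2 fold changes were 2.32 ± 0.81 SE for C1R, 2.33 ± 0.83 SE for C1S and 2.20 ± 0.79 SE for SERPING1, with FDR of 0.317 to 0.328 and no call. Without gilt 01 they were 0.88, 0.97 and 0.66. The genes were set beside the marker sums. In 4 of 6 groups the library with the highest fibroblast sum was also the highest for C1R, C1S and SERPING1. In 5 of 6 groups the library with the highest sum of 6 endothelial markers was. In each pregnant group this library was that of gilt 01, so these groups are not independent, and in control GE that of gilt 02. The share of all genes with such a match was not determined. With the fibroblast sum the count of matching groups was 3 of 6 for C3, CFI and CD46, 2 for CD59 and 0 for CD55. With the endothelial sum it was 4 of 6 for CFI and CD46, 1 for C3 and CD59 and 0 for CD55. The sum of the 3 listed leukocyte markers peaked in the library highest for C1R, C1S and SERPING1 in every group. These were gilt 01 in each pregnant group, gilt 02 in control GE and gilt 13 in control LE and control S. The macrophage sum did so in every group except control S. The smooth muscle sum did so in each pregnant group and in control GE, and the epithelial sum in no group. Of the 8 fibroblast markers, 3 had p below 0.05 (12.5% of all genes in S) with higher levels in pregnant S, 0 were called, and their median log2 fold change was 1.58. The median in S was 2.98 for 3 smooth muscle markers (2 higher with p below 0.05), 1.46 for 4 macrophage markers (1 higher) and 1.22 for 6 endothelial markers (1 higher), with 0 called. Of 8 epithelial markers 3 were lower with p below 0.05 in pregnant S, 1 of them called, and their median was −0.15. The part of other cell types in the differences of C1R, C1S and SERPING1 was not tested. Control GE of gilt 13 had the lowest fibroblast sum of all libraries (4288 CPM) and 96 CPM of C1R, 239.6 CPM of C1S and 127 CPM of SERPING1.

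**Figure D3:**
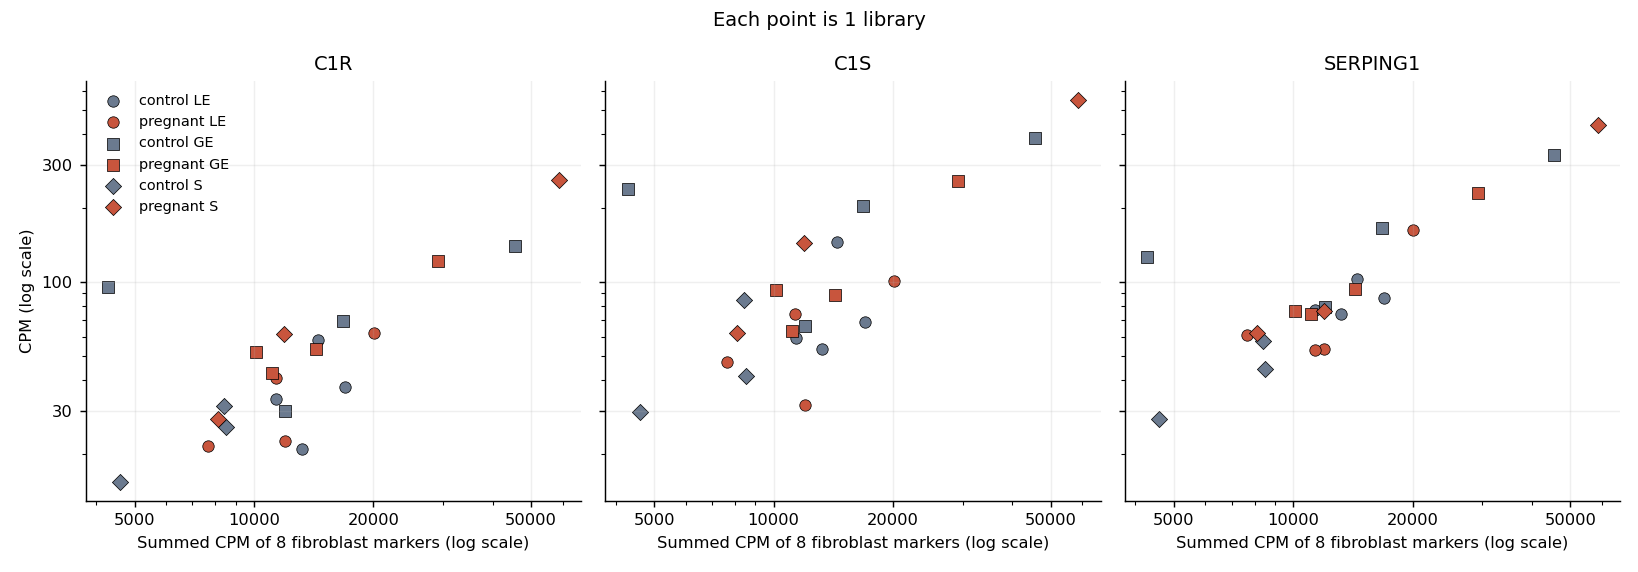
The level of C1R, C1S and SERPING1 (CPM, log axis) is plotted against the summed level of 8 fibroblast markers (CPM, log axis), 1 point for each of the 22 libraries. The libraries with the 3 highest sums (29168 to 58678 CPM) are pregnant GE of gilt 01, control GE of gilt 02 and pregnant S of gilt 01, and control GE of gilt 13 lies at the left above the others.

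Between S and GE of control gilts, C1R, C1S and SERPING1 were lower in S in 3 of 3 gilts (−2.0 ± 0.38 SE, −2.37 ± 0.42 SE and −2.10 ± 0.39 SE on the log2 scale, FDR 0.0344, 0.0338 and 0.034). With edgeR 0 of 8 genes and 0% of all genes were called here, 6 of 8 had p below 0.05 (17.8% of all genes), and DESeq2 called these 3. In pregnant gilts S against GE gave log2 fold changes of 0.24, 0.60 and 0.24, with 0 of 8 genes called (0% of all genes), 0 of 8 with p below 0.05 (2.91% of all genes) and 0 called by DESeq2. The change of this contrast with pregnancy was 2.24 ± 0.52 SE for C1R (FDR = 0.257), 2.97 ± 0.57 SE for C1S (FDR = 0.164) and 2.34 ± 0.53 SE for SERPING1 (FDR = 0.241). It was called for 0 of 8 genes with edgeR (0% of all genes), 3 of 8 had p below 0.05 (9.9% of all genes), and DESeq2 called C1S and SERPING1.

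The remaining contrasts gave no call for the 8 genes with edgeR. For S against LE of control gilts 0 of 8 were called (0% of all genes), 3 had p below 0.05 (6.5% of all genes) and DESeq2 called 0. In pregnant gilts S against LE gave 0 of 8 calls (3.14% of all genes), 5 with p below 0.05 (31.3%) and 2 with DESeq2, C1S (1.46 ± 0.40 SE, FDR = 0.0276 with edgeR) and CD55. The response to pregnancy differed between GE and LE for 0 of 8 genes (0.395% of all genes), with CD46 as the 1 gene with p below 0.05 (17.2%) and 0 by DESeq2. Between S and LE it differed for 0 of 8 (0.0188% of all genes), with p below 0.05 for C1R, C1S and SERPING1 (15.2%), and DESeq2 called C1S.

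Levels of different genes were compared per kb of exon. SERPING1 was the highest in control LE (44.9 ± 6.81 CPM per kb, SD, n = 4), followed by C1S (27.6 ± 14.5), CD46 (25.6 ± 3.89) and CD59 (22.4 ± 5.91). In pregnant LE, CD46 took the first place (58.7 ± 6.33 CPM per kb) and CFI the last (2.51 ± 1.84). CD59 led in control GE (113 ± 43.8), pregnant GE (87.8 ± 38.9) and control S (51.4 ± 32.1), and SERPING1 in pregnant S (101 ± 112). That first place rested on gilt 01 (230.7 CPM per kb of SERPING1 and 72.2 of CD59), because SERPING1 was below CD59 in gilt 05 (32.6 and 60.6 CPM per kb) and in gilt 14 (40.4 and 91.1 CPM per kb). The other first places did not hold in every library either. SERPING1 was above CD59 in control GE of gilt 02 (174 and 127) and pregnant GE of gilt 01 (121 and 64.7). CD46 was above CD59 in control S of gilt 02 (26.5 and 17.4). In pregnant LE of gilt 01 SERPING1 was above CD46 (86 and 61.7). CFI was the last of the 8 genes in all groups except control LE and control S, where C3 was (4.64 ± 0.851 and 8 ± 3.89). The summed level of CD46, CD55 and CD59 was 54.1 ± 8.96 CPM per kb in control LE, 91.5 ± 19.1 in pregnant LE, 156 ± 47.9 in control GE and 154 ± 40.9 in pregnant GE (SD, n = 4). In S it was 88 ± 25.6 CPM per kb in the control and 154 ± 36 in the pregnant gilts (SD, n = 3).

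**Figure D4:**
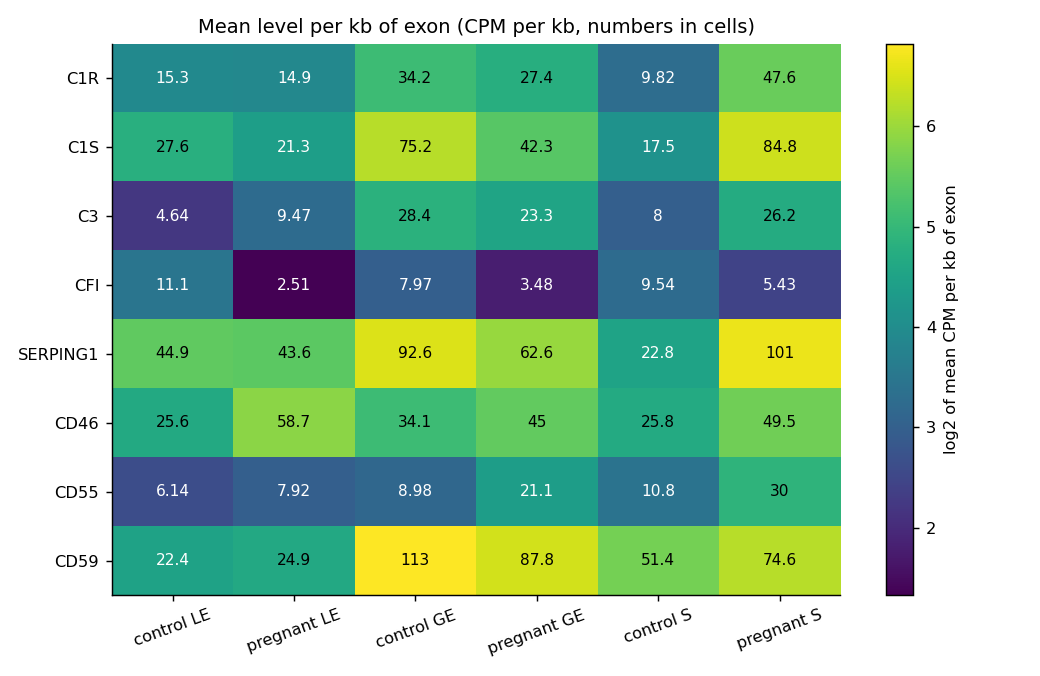
The colour and the number in each cell give the mean level of a gene (rows) in a group of 3 or 4 libraries (columns) in CPM per kb of exon, on a log2 colour scale. CD59 in control GE (113) is the highest cell and CFI in pregnant LE (2.51) the lowest.

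Other genes of the complement system were taken from a list of 45 symbols, of which 18 were listed for at least 1 cell type, 14 of them for all 3, 24 for none, and 3 had no gene model of that symbol. In LE 1 of 14 was called, with higher levels in pregnant gilts (10% of all genes were called), and 1 higher and 2 lower had p below 0.05 (35.6% of all genes). In GE 0 of 18 were called (0.694% of all genes), and 2 higher and 5 lower had p below 0.05 (8.09%). In S 0 of 15 were called (1.47% of all genes), with 2 higher at p below 0.05 (12.5%; DESeq2 called 1 in each of the 3 cell types, CLU in LE, C1QB in GE and C4A in S). The median log2 fold change was −0.17 in LE, −0.48 in GE and 0.67 in S, against 0.0076, −0.021 and 0.079 over all genes. The gene called in LE was CLU (clusterin, an inhibitor of the terminal complex that is also a secreted chaperone). Control LE had 29, 16.9, 55.4 and 40.7 CPM of CLU and pregnant LE 699.7, 2537, 362 and 251 CPM. Every pregnant library was above every control library, with gilt 03 the highest (26.7% of the genes in LE did not overlap in either direction). The difference was 4.75 ± 0.76 SE (FDR = 0.00196), or 3.60 without gilt 03. In GE, CLU went the other way without a call (−0.75 ± 0.33 SE, FDR = 0.615), and the difference between the responses was −4.92 ± 0.89 SE (FDR = 0.0133). Of the 50-base windows of CLU, 13.9% are shared with LOC110258505.

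The first steps of the cascade are represented by C1QB and C1QC, subunits of C1q, which are genes of macrophages in many tissues. C1QB was 35.3 ± 11.7 CPM (SD, n = 4) in control LE and 17.5 ± 9.77 CPM (SD, n = 4) in pregnant LE (−1.09 ± 0.40 SE, FDR = 0.0754). GE gave 25.3 CPM of C1QB in the control and 11.6 CPM in the pregnant gilts (−1.13 ± 0.30 SE, FDR = 0.356). These groups did not overlap, as for 4.97% of the genes in GE. C1QC had −0.81 ± 0.29 SE in GE (FDR = 0.495). Of 4 macrophage markers listed in LE, 0 were called, 2 were lower and 1 higher in pregnant gilts with p below 0.05, and their median log2 fold change was −0.53. Of 5 listed in GE, 0 were called, 2 had p below 0.05 with higher levels in pregnant gilts, and the median was −0.025. The part of macrophages in these differences was not tested. C4A, the component cleaved by C1s, was 18.9, 76 and 38.9 CPM in control S and 574, 83.7 and 176 CPM in pregnant S. The groups did not overlap, as for 17.4% of the genes in S (2.70 ± 0.81 SE, FDR = 0.254). Gilt 01, with the highest fibroblast sum in S (58678 CPM), was far above the others, and without it the log2 fold change was 1.53 (FDR = 0.37). CFD, the protease of the alternative pathway, was 28 CPM in control GE and 71.2 CPM in pregnant GE (1.34 ± 0.58 SE, FDR = 0.611).

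C5 and C7 of the terminal pathway were listed in GE only, C5 with 5.98 ± 4.32 CPM (SD, n = 4) in the control and 18 ± 9.02 CPM (SD, n = 4) in the pregnant gilts (1.56 ± 0.53 SE, FDR = 0.477), C7 with 20.8 and 16.4 CPM (−0.36 ± 0.96 SE, FDR = 0.936, −1.60 without gilt 01). Among receptors, CD93 had 66.1, 59.7, 42.2 and 21.5 CPM in control and 249, 83.9, 62.2 and 41.6 CPM in pregnant LE (1.15 ± 0.53 SE, FDR = 0.152). Gilt 01 was the highest, and without it the log2 fold change was 0.40 (FDR = 0.484). The sum of 6 endothelial markers was also highest in LE of gilt 01 (1495 CPM), 3 of the 6 were higher in pregnant LE with p below 0.05 (0 called, median log2 fold change 0.62), and their part in CD93 was not tested. The C3a receptor C3AR1 had 15.1 and 7.31 CPM in control and pregnant GE (−1.05 ± 0.36 SE, FDR = 0.479). C1QBP, a binding protein of C1q in mitochondria and at the cell surface, had 0.14 ± 0.18 SE in LE (95% interval −0.22 to 0.50).

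**Figure D5:**
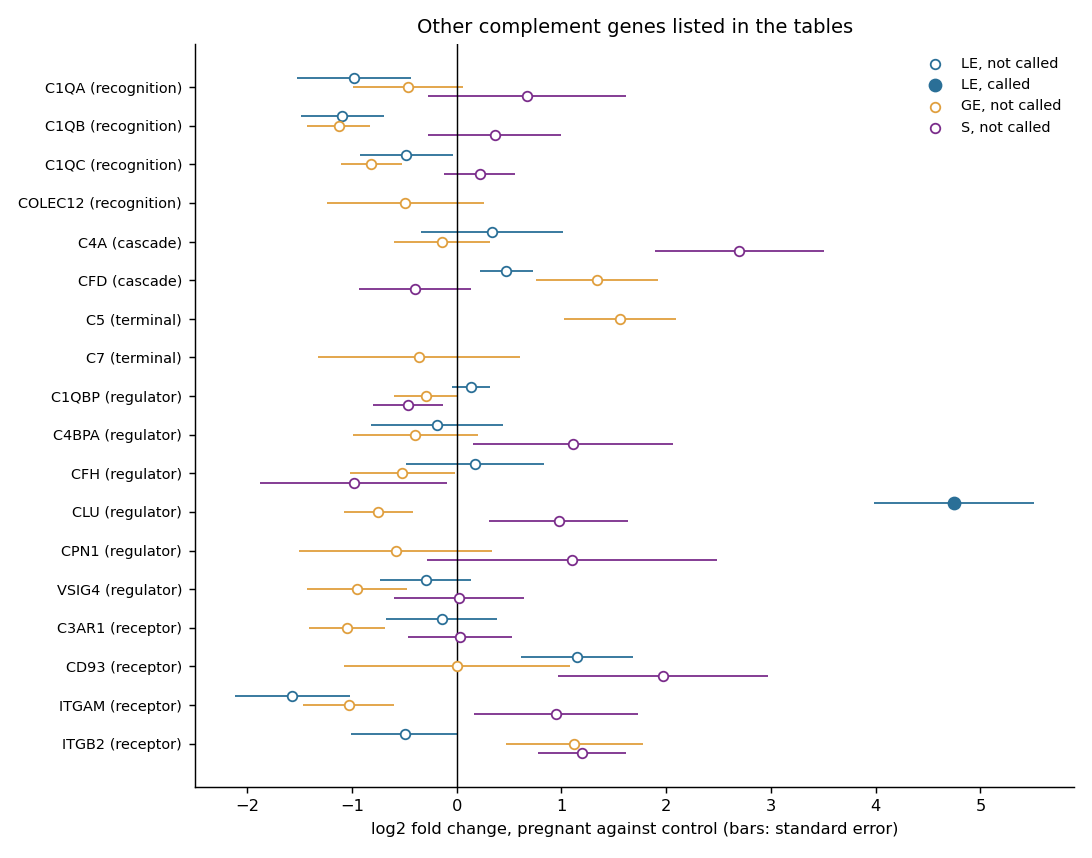
The log2 fold change between pregnant and control gilts (x axis, bars for the standard error) is plotted for 18 further complement genes in the cell types that list them, with filled points for called genes. CLU in LE (4.75) is the only filled point.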

How the data were processed

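RNA from cells captured by LCM was sequenced by the authors in single-read libraries (Ovation SoLo), of which 22 were used here. Stroma of gilts 03 and 06 was not analysed here. Per the labels and the study's methods, 5 bases were removed, reads were mapped with Hisat2 to Sscrofa11.1, and PCR duplicates were removed by the random bases of the adapter. The authors deposited raw counts per gene, one table per cell type, after a CPM filter. The counting tool, the use of strand and the filter cutoff are not given in the sources used here.

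Each table was tested with edgeR 4.0.16 (R 4.3.3; TMM, quasi-likelihood F test; FDR below 0.01 in LE, unadjusted p below 0.0021 in GE and S, after the study). Cell types and their responses were compared in 1 joint fit of 22 libraries and 10643 genes with the gilt as block (FDR below 0.01), because cell types came from the same gilts (median correlation of deviations of the same gilt 0.257 for GE and LE, 0.468 for GE and S and 0.314 for LE and S). CPM come from the joint TMM normalization, pregnant against control fold changes from the tables. Alternatives were DESeq2 1.42.0, exact and likelihood ratio tests, other normalizations, filters and thresholds, a random block (limma 3.58.1) and leaving out each gilt. Counts were simulated with 200 genes changed by 2 on the log2 scale, a dispersion of 0.15 for every gene and no effect of the gilt. Of the 200, 160 were called in LE (2 false calls), 188 in GE (23 false calls) and 161 in S (27 false calls). In the difference of responses between GE and LE 30 were called (0 false calls). Genes as variable as C1R, C1S and SERPING1 in S were not simulated, so these shares do not apply to them. Promoter bases and gene models are RefSeq (Sscrofa11.1), and all 8 genes matched by gene ID. All 8 listed genes are named, of the wider list those called and the 2 highest per role. The genes and lists were chosen with earlier results of these data known.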

Additional observations from a re-analysis of the deposited data

Results flagged for a closer look

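Within groups of 4 libraries, 36 combinations of gene and group (the 8 genes and CLU in LE and GE) were examined. A library far from the others was sought by Dixon's criterion. Chance alone meets it in about 1 in 20 groups of independent, normally distributed values. CPM are skewed and the combinations share libraries, so that rate does not hold for them. The criterion was met in 10 combinations. Gilt 01 was the outlying library in 6 of them. Its pregnant GE library had 121.6 CPM of C1R (the other 3 libraries 42.8 to 53.4 CPM), 258.7 CPM of C1S (63.4 to 92.8 CPM), 230.2 CPM of SERPING1 (74.2 to 94.2 CPM) and 210.2 CPM of CD46 (158 to 163 CPM), and its pregnant LE library had 163 CPM of SERPING1 (53.2 to 60.9 CPM) and 96.39 CPM of CD59 (25.7 to 37.2 CPM). The fibroblast sums of these libraries were the highest of their groups (29168 CPM in GE and 20094 CPM in LE). So were their leukocyte, macrophage, endothelial and smooth muscle sums. The part of these cell types in the values was not tested. Gilt 14 had 285.7 CPM of CD59 in pregnant GE (125 to 152 CPM) and 28.47 CPM of CFI in pregnant LE (7.14 to 9.97 CPM). Among control LE libraries, gilt 13 had 146.3 CPM of C1S (53.7 to 68.8 CPM) and gilt 02 had 39.38 CPM of CFI (64.8 to 69 CPM).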

How the results depend on the processing

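CD46 in LE was called under each alternative and without each gilt. Of 1324 values of single genes under alternatives, 1254 kept direction and call, 22 lost and 25 gained the call, and 23 changed sign. In LE, 1 of the 8 genes was called, instead of 2, with only the 6 gilts that have an S library, where CFI was at −1.85 (FDR = 0.0479), and with at least 10 counts in every library, where CFI was not tested. DESeq2 called 2 of 8 genes in GE, and the exact and likelihood ratio tests 1 each, against 0. In S, the joint fit without a replicate block called 1 (CD46), against 0. Of the wider list, the exact test called 2 in LE (CLU and ITGAM), against 1. In GE, DESeq2 and the likelihood ratio test called 1 each (C1QB), and in S, DESeq2, the exact and the likelihood ratio test called 1 each (C4A), against 0. For GE against LE of control gilts, 3 were called by DESeq2, 4 at FDR below 0.05, and 1 (CD59) with at least 10 counts in every library and with the gilt as random block, against 0.

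The replicate block of the gilt moved the calls of GE against LE in pregnant gilts from 1 (CD59) without it to 2 with it, and in the fit of only those 2 cell types 1 was called. For S against LE of pregnant gilts, DESeq2 and FDR below 0.05 called 2, for S against GE of control gilts both called 3, and DESeq2 called a different response for 1 gene between S and LE and for 2 between S and GE, each against 0. The causes were not tested. Over all genes, DESeq2 called 2182 in LE (edgeR 1146), 241 in GE (81), 512 in S (170) and 1075 in GE against LE of control gilts (196). GE against LE of pregnant gilts gave 1680 with and 1018 without the replicate block. In S against LE of pregnant gilts, DESeq2 called 1244 (334).

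Leaving out 1 gilt at a time, 1 to 2 genes were called in LE, 0 to 3 in GE against LE of pregnant gilts, 0 to 1 of control gilts, 0 to 1 in S against LE of pregnant and 0 to 2 in S against GE of control gilts, and 0 to 1 of the wider list in GE (C1QB without gilt 01, C5 without gilt 06). The log2 fold change in LE then ranged from −0.41 to 0.22 for C1R, −0.69 to 0.044 for C1S, −0.61 to 0.067 for SERPING1, −0.025 to 0.60 for CD55 and −0.40 to 0.29 for CD59, which was also −0.051 with library size alone. In GE it ranged from −0.62 to 1.08 for C3 and −0.78 to 0.061 for C1R. S against LE ranged from −0.28 to 0.0039 for CFI and −0.043 to 0.10 for CD46 in control and from −0.053 to 1.0 for CFI in pregnant gilts. S against GE ranged from −0.13 to 0.41 for CD55 in control gilts, and in pregnant gilts from −0.075 to 0.40 for C3, −0.29 to 0.62 for C1R, −0.24 to 0.71 for CFI, −0.15 to 0.48 for SERPING1 and −0.62 to 0.41 for CD55. With 3 or 4 gilts per group and 893912 to 4020796 counts per library, the SE of the log2 fold change of the 8 genes was 0.17 to 0.41 in LE, 0.19 to 0.74 in GE and 0.28 to 0.83 in S, which limits what could be called.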
